A study of Mus musculus with 2 samples.

Results

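The genes described here encode the core of the splicing machinery: the proteins of the spliceosomal snRNPs and of the SF3 and PRPF factors, the hnRNP proteins and the SR proteins. They were taken by name from the authors' deposited table of peaks and genes, as every gene whose symbol begins with Hnrnp, Srsf and a digit, Sf3a, Sf3b, Snrnp, Snrp or Prpf, without pseudogenes and without Hnrnpd. The rule gave 37 of the 11969 genes in the table. Of the 37, a called peak overlapped 32, with 104 peaks, and the other 5 were paired in the table with peaks that lie beyond their ends. Of all 11969 genes in the table, 51.4% were overlapped. A RefSeq gene table of the same build held 71 genes of these names, so 34 were paired with no peak.

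The study immunoprecipitated ELAVL2, a neuronal-type Hu protein that binds U-rich and AU-rich RNA, from newborn (P0) mouse ovary and sequenced the RNA that came down with it. Its groups were 1 ELAVL2 RIP sample, made with 5 ug of an ELAVL2 antibody, and 1 input sample, a 5% portion of the cleared lysate. The lysate came from 100 ovaries homogenised together, so oocytes and somatic cells were mixed, and strain and genotype are not given in the sources used here. No replicate and no control antibody were among the samples, so no value has a replicate check, and RNA held by ELAVL2 cannot be told apart from RNA held by beads or antibody.

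The spliceosome is built from the U1, U2, U4, U5 and U6 snRNPs, each a small nuclear RNA bound by a ring of Sm proteins (Lsm proteins in U6) and by particle-specific proteins, and a minor spliceosome with U11 and U12 removes a rare class of introns. SR proteins bind exonic enhancers and favour the use of nearby splice sites, while many hnRNP proteins coat nascent RNA and often repress them. Many SR and hnRNP genes regulate their own transcripts through conserved exons that carry a premature stop codon. Proteins of the ELAVL family, in turn, bind mRNA 3' ends and introns and affect stability, translation and splicing.

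Each peak has a pileup, the number of overlapping RIP tags at its summit, and a fold enrichment over a local input level, both from the authors' peak caller. The RIP left 13787676 tags for peak calling and the input 19479946, of which 1 input tag counts as a level of 0.708 after scaling. The fold has a pseudocount of 1 on both sides and the -log10 q is the authors' own. The list held 28332 peaks in all. Of cell type markers, a peak overlapped 4 of 7 for oocytes (Ddx4, Dazl, Kit and Sycp3), 1 of 5 for granulosa cells (Fshr) and 1 of 3 for endothelium (Tek). None of 2 stromal and 2 blood markers was overlapped. The background was 23.4% of all protein-coding genes in the RefSeq table and 48.0% of those over 50 kb. These counts are therefore no check of which cells were present. A peak reports enrichment and not expression, so the absence of a peak does not say that a marker was absent.

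The first question was how much of the splicing machinery held a peak. Of the 71 genes, 32 (45.1%) were overlapped, and the background over 21900 protein-coding reference genes was 23.4%. Of these 32, 13 (40.6%) had a best fold of at least 3, against 76.2% of all 6158 overlapped genes. The share of all protein-coding genes at that fold was not recomputed, so the comparison holds only for all called peaks. Within the 37 genes of the table the overlapped count was 32, where 51.4% of all 11969 genes in the table were overlapped. Gene length moves with the chance of holding a peak. Among family genes under 10 kb 11 of 26 (42.3%) were overlapped, against a background of 7.65%, and among those of 10 to 50 kb 19 of 42 (45.2%), against 23.8%. Of the 3 family genes over 50 kb 2 were overlapped, against 48.0% of all such genes. The files hold no expression level for a gene that lacks a peak, so the part of expression in these counts was not tested.

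The counts of overlapped genes are given by group, where 23.4% of all protein-coding genes were overlapped, a share not matched for gene length. The SR proteins had 10 of 11, all but Srsf11. In the hnRNP C to U group 5 of 13 were overlapped, and in the hnRNP A/B and D-like group 1 of 6. Of the Sm core genes 4 of 8 were overlapped, of the U2 and SF3 genes 4 of 11, of the tri-snRNP genes 4 of 11, of the U1 genes 2 of 6, of the U11/U12 genes 1 of 3, and of the Prp19 and second-step genes 1 of 2. No difference between groups was tested, since genes are not replicates. Genes of several central proteins were paired with no peak: Prpf8 and Snrnp200, which form the catalytic heart and the unwinding helicase of U5, Snrnp70, Snrpa and Snrpc, the classical U1 proteins, and Hnrnpa1, Hnrnpa2b1 and Hnrnpa3. The same held for Hnrnpab, Hnrnpdl, Hnrnph1, Hnrnph2, Hnrnpll, Hnrnpm, Hnrnpr and Hnrnpul2, for Sf3a2, Sf3a3, Sf3b2, Sf3b3, Sf3b6 and Snrpa1, and for Prpf3, Prpf4, Prpf6, Prpf19, Prpf31 and Prpf38b. No peak lay in the RefSeq body of any of the 34 genes either.

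**Figure D1:**
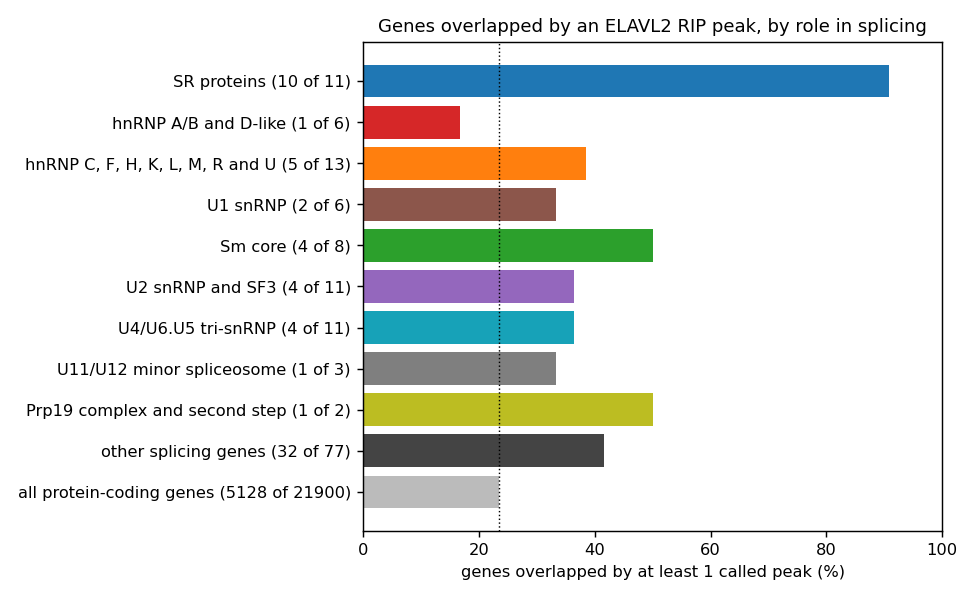
Share of reference genes overlapped by at least 1 called peak (x axis, %), for 9 role groups of the family, for a list of 77 other splicing genes and for all protein-coding genes (dotted line at 23.4%). SR protein genes reach 10 of 11, and the hnRNP A/B and D-like genes, with 1 of 6, are the only group under the dotted line. That line is not matched for gene length. The median length of this group is 6.77 kb, and the background for genes under 10 kb was 7.65%.

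The SR proteins had 41 peaks, the most of any group. Srsf1, the founding member of the family, carried 15 of them in a gene body of 6.38 kb (chromosome 11, 88047373 to 88053755), which is 2.35 peaks per kb and rank 132 of 6158 overlapped genes by peaks per kb. Its best peak by -log10 q, at 88053400 to 88053530, had a pileup of 44 in the RIP against an input level of 9.91, which gave a fold of 4.13 with a -log10 q of 10.7. Its summit was 336 bp from the gene end. A run of 11 peaks in the middle of the gene, with summits from 35.2 to 75.9% of its length, had higher input levels of 12.7 to 34.0 and lower folds of 1.95 to 2.98. The first peak, at 88047836 to 88047915, also overlapped Gm11508, and its fold was 3.47. Merging peaks within 100 bp left 9 blocks.

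Srsf10, an SR-like protein that represses splicing when dephosphorylated, held 9 peaks in 14.2 kb (chromosome 4, 135855747 to 135869908). Its last 6 summits lay within 1751 bp of the gene end, with pileups of 34 to 63 in the RIP and input levels of 10.6 to 20.5, and the largest -log10 q, 9.38, was at 135869579 to 135869848. Its largest fold, 5.34, lay elsewhere, at 24.5% of the gene length, where a pileup of 17 stood against an input level of 2.37. The fold was thus largest where the input was lowest, while the -log10 q was largest at the end of the gene.

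Srsf9 held 5 peaks, spread over its 5.90 kb. The best, at 115330607 to 115330661 on chromosome 5, had a pileup of 51 in the RIP against an input level of 16.3, which gave a fold of 3.01 with a -log10 q of 7.66. Srsf1, Srsf10 and Srsf9 were the 3 SR genes with a best fold of at least 3. The remaining SR genes had best folds between 1.72 in Srsf5 and 2.27 in Srsf7. Srsf2, the SC35 protein of nuclear speckles, had 4 peaks with pileups up to 79 and input levels up to 41.1, and all of them also overlapped Mettl23, so the source gene cannot be told apart. Srsf6 had 3 peaks. Srsf3, Srsf4, Srsf5, Srsf7 and Srsf12 had 1 each. The Srsf4 peak also overlapped Gm12992. The Srsf12 peak had the lowest best -log10 q of the 32 overlapped members, 1.33 (pileup 22, input level 9.20, fold 2.25). Of these 5 single peaks, those of Srsf4, Srsf5, Srsf7 and Srsf12 were 146 to 391 bp from the gene end, and that of Srsf3 was 6973 bp from it, at 34.8% of the gene length.

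Among the hnRNP genes Hnrnpc stood first, and it had the largest -log10 q of all 32 members. hnRNP C binds U-rich tracts in introns and competes there with U2AF2. The gene (chromosome 14, 52073380 to 52104028, minus strand) held 13 peaks in 2 separate stretches. In the upstream stretch 6 summits lay between 5551 and 6602 bp from the gene's 5' end, and along it, 5' to 3', the folds were 2.15, 2.85, 3.34, 3.71, 4.76 and 5.83. The pileups in the same order were 27, 24, 26, 19, 24 and 42 in the RIP, against input levels of 12.03, 7.79, 7.08, 4.39, 4.25 and 6.37. Over the first 5 peaks the input level was thus lower at each step while the pileup was no higher than at the first, and only the last peak had a higher pileup. That peak, at 52097321 to 52097535, had a pileup of 42 in the RIP against an input level of 6.37 and a -log10 q of 15.3, rank 130 of 6158 overlapped genes. In the downstream stretch 7 summits lay between 19876 and 30347 bp, with higher pileups of 35 to 73 but also higher input levels of 15.8 to 36.8, and folds of 1.80 to 2.66. The 5 largest folds of the gene thus lay in the upstream stretch. Whether it falls in an exon or an intron was not analysed here.

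The other overlapped hnRNP genes had 1 to 3 peaks. Hnrnpl, which binds CA repeats, had the highest pileup of any member peak, 80 in the RIP against an input level of 36.8, at 28821898 to 28822252 on chromosome 7. Its fold there was 2.14 and its -log10 q 5.84. Hnrnpa0, a protein that binds AU-rich mRNA elements, had 1 peak at 120 bp from the gene end, with a pileup of 47 against an input level of 16.99, which gave a fold of 2.67 with a -log10 q of 5.53. Hnrnpf, a G-tract binding protein, had 2 peaks with summits within 196 bp of its end and folds of 1.87 and 2.08. The remaining Hnrnpf peak lay at 20.2% of the gene, with a pileup of 7 against an input level of 0.708, equal to 1 input tag, and gave its best fold, 4.68. Hnrnpul1 had 3 peaks with summits within 895 bp of its end and folds of 1.93 to 2.34. Hnrnpu, the scaffold attachment factor, had 2 peaks inside it with folds of 1.79 and 1.93, both also overlapping Gm28062.

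The annotation decided the value of Hnrnpu. A further 3 peaks lay 246 to 771 bp upstream of it in the authors' deposited table, with folds of 4.76, 2.95 and 2.76, and the RefSeq body of Hnrnpu, which reaches 178338891 on its 5' side, against 178337797 in that table, includes all 3. The best fold of Hnrnpu was thus 4.76 with the RefSeq body, against 1.93 with the body in the authors' table. For Hnrnpk, a poly(C)-binding protein, and Hnrnph3 no peak lay in the gene. The best of 3 Hnrnpk peaks by q was 76745 bp upstream, and the single Hnrnph3 peak, 773 bp downstream, overlapped Rufy2.

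**Figure D2:**
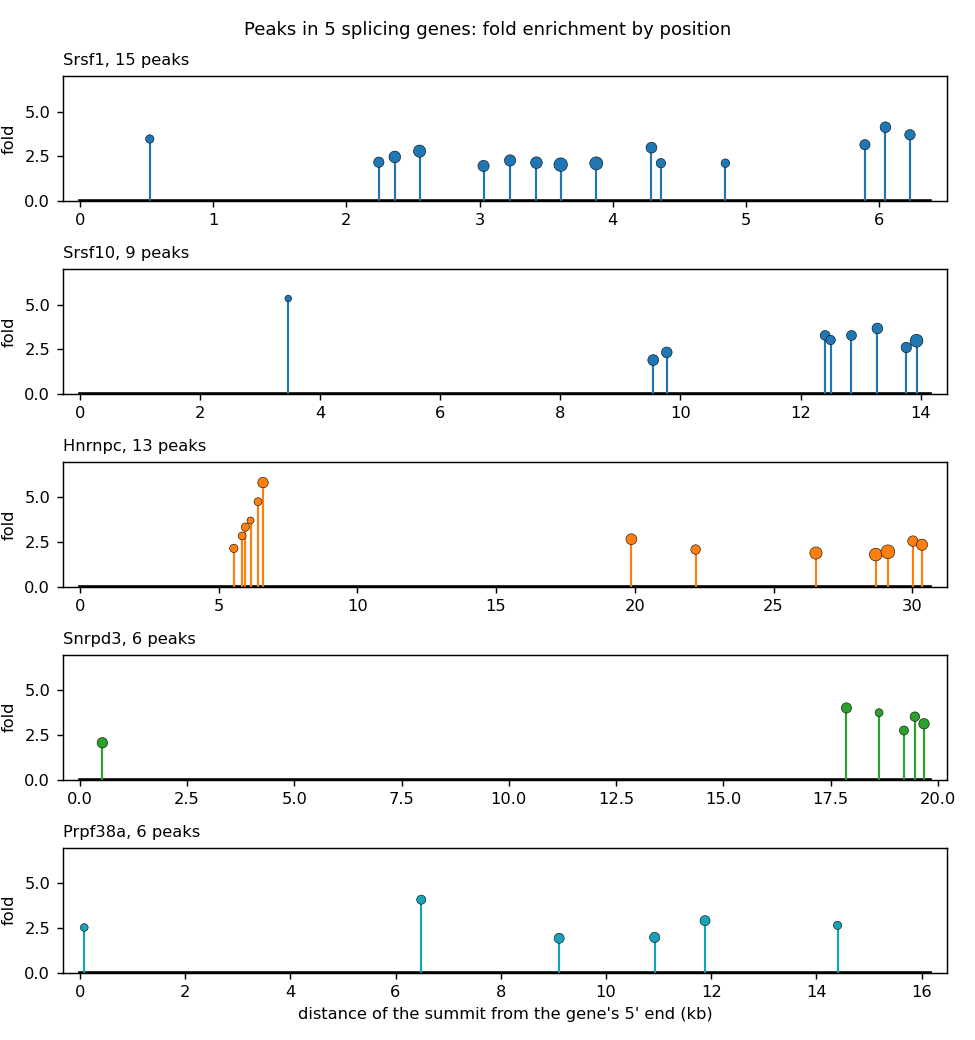
Called peaks in Srsf1, Srsf10, Hnrnpc, Snrpd3 and Prpf38a, with the summit's distance from the gene's 5' end in kb (x axis) and fold enrichment (y axis). Point area is proportional to pileup. The folds of the 6 upstream Hnrnpc peaks run from 2.15 to 5.83 along the gene, over input levels of 12.03 at the first and 6.37 at the last, and 5 of 6 Snrpd3 peaks sit at its 3' end.

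Of the snRNP genes, the largest -log10 q belonged to Snrnp48, a protein of the U11/U12 particle that takes part in recognising the 5' splice site of minor introns. The summits of all 3 of its peaks lay in the last 520 bp of the gene (chromosome 13, 38204939 to 38227663). Towards the 3' end they had pileups of 25, 31 and 36 in the RIP against input levels of 7.08, 9.20 and 4.95, and folds of 3.22, 3.14 and 6.21. The last, at 38227451 to 38227525, reached a -log10 q of 14.1, rank 197 of 6158. The input level at that position was the lowest of the 3 and the pileup the highest. The remaining U11/U12 genes, Snrnp25 and Snrnp35, were paired with no peak.

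Snrpn, the imprinted Sm protein gene expressed from the paternal allele, had the largest fold of any member, 10.1, at 60007455 to 60007571 on chromosome 7. That value rests on a pileup of 13 in the RIP against an input level of 0.389, near the genome-wide background of 0.369. Its second peak had a pileup of 9 at the background level and a fold of 7.31. Both summits lay 24988 bp or more from the gene end in a body of 158 kb, which RefSeq extends to 467683 bp. Neither reached a pileup of 20. No peak lay near the end of the gene.

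The other Sm genes with peaks had lower folds and at least 1 peak in the last 10% of the gene. Snrpd3, a subunit of the ring, had 6 peaks in 19.8 kb (chromosome 10, 75517551 to 75537373), 5 of them in its last 10% with folds of 2.75 to 4.02, pileups of 24 to 42 and input levels of 5.66 to 12.7. The best, at 75535380 to 75535505, had a -log10 q of 9.40. The end of Snrpd3 in RefSeq, 75535440, lies upstream of 4 of these 5 summits. Snrpd1 had 1 peak 218 bp from its end (pileup 32, input level 9.91, fold 3.03, -log10 q 4.68). Snrpf had 2, with folds of 2.08 and 2.31, and the one near its end also overlapped Ccdc38. Snrpg was paired only with a peak 1369 bp upstream, inside Fam136a. Snrpb, Snrpd2 and Snrpe were paired with none.

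For U1, no peak lay in Snrnp70, Snrpa or Snrpc, the particle's own proteins. Prpf39, a U1-associated factor of alternative splicing, had 1 peak at 71.6% of its length with a fold of 5.80, resting on a pileup of 13 against an input level of 1.42 (-log10 q 5.66). Prpf40b was paired only with a peak 384 bp upstream (fold 4.96, pileup 18).

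The U2 and SF3 genes had 8 peaks with folds of 1.86 to 2.91. The best was in Sf3b1, the branch-site protein and target of splicing inhibitors, 159 bp from the gene end, with a pileup of 39 in the RIP against an input level of 12.7, which gave a fold of 2.91 with a -log10 q of 5.38. Snrpb2, the U2B'' protein, had 5 peaks, none within 500 bp of its end. Its best, with a fold of 2.55, had a pileup of 32 in the RIP against an input level of 11.96 (-log10 q 3.19). In RefSeq that gene ends at 143072052, against 143072853 in the authors' table. Sf3a1 had 1 peak with a fold of 2.16 (pileup 41, input level 18.4, -log10 q 2.68) and Sf3b4 1 with a fold of 1.90. Sf3b5 was paired only with a peak 13304 bp upstream of it.

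Of the tri-snRNP genes, Prpf38a, needed to activate the spliceosome, held 6 peaks spread over its 16.2 kb, none of them in the last 10% of the body in the authors' table. In RefSeq the gene ends at 108564867, close to the last of these peaks, at 108564897 to 108564952. The best, at 108572801 to 108572860 on chromosome 4, had a pileup of 32 in the RIP against an input level of 7.08, which gave a fold of 4.09 with a -log10 q of 7.71. Snrnp40, a U5 protein, had 4 peaks with folds of 2.33 to 4.03, the largest at 81.6% of its length with a -log10 q of 5.46. Prpf4b, a kinase of the tri-snRNP, and Snrnp27 had 1 peak each, 245 and 151 bp from the gene end, with folds of 2.34 and 2.26. The Prpf4b peak had a pileup of 41 in the RIP against an input level of 16.99 (-log10 q 3.40). In RefSeq Prpf4b ends at 34906064, against 34902877 in the authors' table. Prpf18, a factor of the second catalytic step, had 2 peaks with summits within 361 bp of its end. Their pileups were 29 and 55 in the RIP against input levels of 11.3 and 26.9, with folds of 2.43 and 2.01.

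Few peaks lay at 5' ends. Only 5 of the 104 summits (4.81%, exact Clopper-Pearson 95% interval 1.58 to 10.9) were in the first 10% of their gene, in Srsf1, Srsf9, Snrpd3, Prpf38a and Snrnp40, against 5.15% of the summits in other genes. Intervals here cover counting only. The count uses the gene bodies of the authors' table, so it leaves out the peaks upstream of Hnrnpu that its RefSeq body includes. Sequence could be read only where a peak touched a RefSeq promoter window, which spans 250 bases before to 50 after a gene's start (GRCm38.p6, the assembly of mm10). That was so for 3 peaks, shown here 5' to 3' on the strand of the splicing gene, with the bases under the peak in capitals, to show the sequence under peaks at 5' ends. The first is minus strand, chr4:108579204-108579503, the second plus strand, chr10:75517923-75518222, and the third minus strand, chr1:178337766-178338065. The first 2 are read from the windows of the divergent neighbours Orc1 and Gucd1, which contain the whole peak. The third is the window of an Hnrnpu start inside the gene's RefSeq body, which reaches 178338891. Its peak thus lies before that start but within the RefSeq body.
Prpf38a: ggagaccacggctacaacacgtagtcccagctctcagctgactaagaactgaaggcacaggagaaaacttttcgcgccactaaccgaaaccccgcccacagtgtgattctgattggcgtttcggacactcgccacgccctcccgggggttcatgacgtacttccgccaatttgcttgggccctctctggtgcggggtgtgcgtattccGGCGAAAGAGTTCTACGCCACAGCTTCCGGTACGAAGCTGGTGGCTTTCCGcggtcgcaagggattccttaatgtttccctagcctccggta
Snrpd3: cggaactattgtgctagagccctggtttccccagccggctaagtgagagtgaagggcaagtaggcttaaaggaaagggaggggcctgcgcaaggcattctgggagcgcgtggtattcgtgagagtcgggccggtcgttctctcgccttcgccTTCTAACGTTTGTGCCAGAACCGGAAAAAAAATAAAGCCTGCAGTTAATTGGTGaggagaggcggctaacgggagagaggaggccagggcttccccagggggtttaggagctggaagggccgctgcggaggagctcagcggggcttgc
Hnrnpu: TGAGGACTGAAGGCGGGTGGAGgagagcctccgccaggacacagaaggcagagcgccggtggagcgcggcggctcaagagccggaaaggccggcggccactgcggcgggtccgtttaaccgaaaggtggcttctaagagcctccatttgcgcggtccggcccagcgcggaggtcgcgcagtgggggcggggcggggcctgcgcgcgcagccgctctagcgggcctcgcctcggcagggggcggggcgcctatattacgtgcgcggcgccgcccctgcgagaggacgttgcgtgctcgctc

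The Prpf38a peak covered 51 bases with 58.8% G or C (fold 2.53, pileup 23), and the Snrpd3 peak 54 bases with 38.9% (fold 2.07, pileup 42). Of the Hnrnpu peak, 22 of 246 bases lay in the window. These stretches were searched on both strands for TTTNTTT, a U-rich pattern, for ATTTA, the core of AU-rich elements, and for TATTTAT, which contains ATTTA. None was found on the strand of the gene in any of the 3 windows. On the opposite strand the Snrpd3 peak held 3 overlapping matches of TTTNTTT, where its own strand has a run of A. Among 32817 promoter windows of 300 bases, 17.9% held TTTNTTT on the gene's strand and 31.5% on either, 20.3% and 34.1% held ATTTA, and 2.75% and 5.60% held TATTTAT. The called peaks have no strand, so which strand the RNA came from is not known, and no match says only that these letters are not in these windows.

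Among the genes that held a peak, most had one close to their 3' end. A summit lay within 500 bp of the annotated end in 24 of the 32 overlapped members (75%), against 49.7% of all 6158 overlapped genes, and in 11 members every summit did. Among the 8 without one were Srsf3, Hnrnpu, Prpf39, Snrpn, Snrpb2, Sf3a1 and Prpf38a. These ends are those of the authors' table, and the count was not recomputed with RefSeq ends. The RefSeq end lies further 3' for Prpf4b and Srsf9 and further 5' for Snrpd3, Snrpb2 and Prpf38a. The members are shorter than other overlapped genes, with a median of 15.2 kb against 38.9 kb, and the part of length in this count was not tested. The libraries were made after amplification of antisense RNA, per the labels' protocols, and its part in coverage near 3' ends was not tested. As a share of gene length, 45 of 104 member summits (43.3%, exact interval 33.6 to 53.3) lay in the last 10%. For peaks in other genes the share was 45.1% (44.4 to 45.7). Of the member peaks, 15 were in Srsf1, 13 in Hnrnpc and 9 in Srsf10, so they are not independent. Of the peaks, 95 overlapped 1 gene only, and in these the shares were 44.2% and 46.6%. Between the quartiles of the members' input levels, 25 of 52 member peaks (48.1%, 34.0 to 62.4) lay in the last 10%, against 59.5% of peaks in other genes at the same levels. Every peak of Srsf2, Srsf4 and Hnrnpu was shared with another gene.

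**Figure D3:**
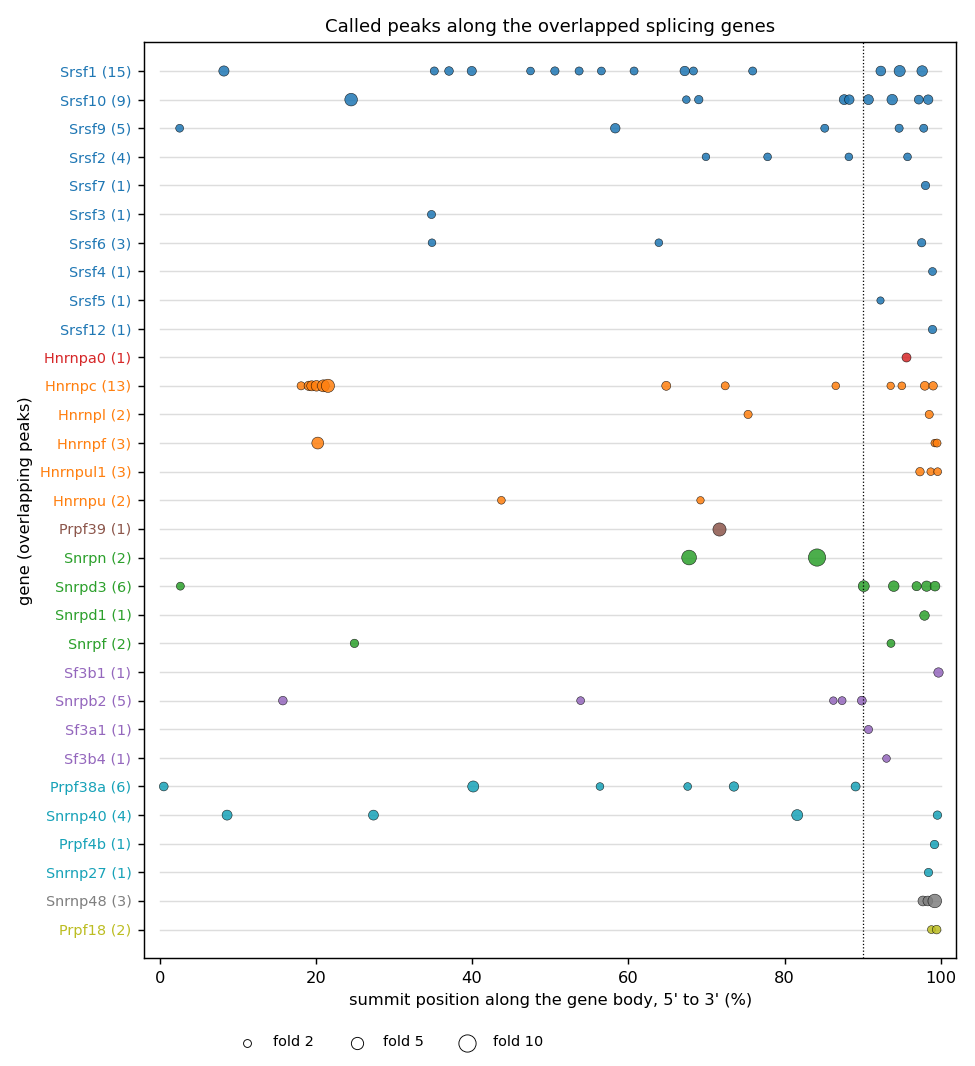
Position of the summits along their genes (x axis, % of gene length from 5' to 3') for 31 of the overlapped members, in rows coloured by role group, with the number of peaks in brackets. Point size grows with fold enrichment and the dotted line marks the last 10%, which holds 44 of the summits drawn.

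Enrichment in these genes was modest in fold and high in pileup. A pileup cannot exceed 100 here, which limits the fold at high input levels, and its part in these values was not tested. The median best fold of the 32 members was 2.49 (quartiles 2.24 and 4.09), against 4.38 (3.07 and 5.86) in the other 6126 overlapped genes. A best fold of at least 3 was found in 13 members (40.6%), with a background of 76.2% over all overlapped genes. Over peaks, the median pileup in members was 41.5 and the median input level 16.3, against 28 and 7.79 in other genes, and the median fold was 2.33 against 3.26. Median fold was lower at higher input levels, in members and in other genes. The input level was itself computed from the pileup and the fold. At levels over 20 the 35 member peaks had a median fold of 1.99, against 2.01 for 2668 other peaks. At levels over 10 to 20 the medians were 2.35 over 41 peaks and 2.51 over 5868. From above 1 input tag to a level of 10 they were 3.53 over 25 peaks and 3.92 over 9813. Only 3 member peaks, 2 in Snrpn and 1 in Hnrnpf, lay at 1 input tag or less, 2.88% of the member peaks against 13.1% of the others. Their median fold was 7.31, against 5.85 over 2762 other peaks, so the members' median was the higher one in this band alone.

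**Figure D4:**
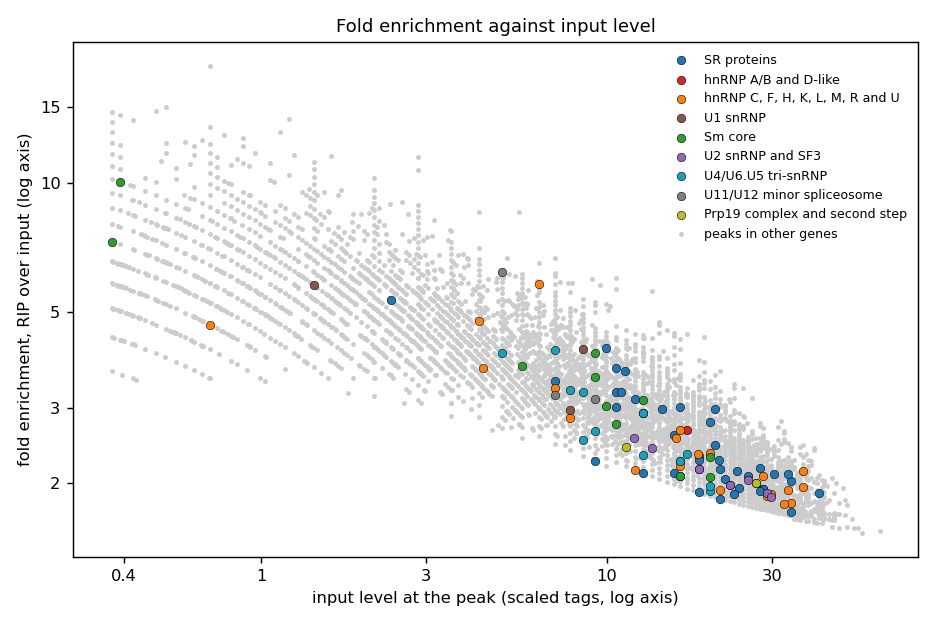
Fold enrichment (y axis, log scale) against input level in scaled tags (x axis, log scale) for the 104 peaks in splicing genes, coloured by role group, and for peaks in other genes (grey). Of the coloured points 41 lie at levels over 10 to 20 and 35 above 20, and the 2 Snrpn peaks lie at the far left.

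The median number of peaks per gene was 2 in members and 2 in other overlapped genes. Exactly 1 peak was found in 13 members (40.6%, background 35.3%), 2 to 4 in 12, and 5 or more in 7 (21.9%, background 27.7%): Srsf1, Hnrnpc, Srsf10, Snrpd3, Prpf38a, Srsf9 and Snrpb2. Per kb of gene body the median was 0.136 in members and 0.0709 in other genes. The members are shorter, with a median of 15.2 kb against 38.9 kb, and the part of length in this value was not tested.

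Of a list of 77 other splicing genes outside the rule, chosen by function, 32 (41.6%) were overlapped by a peak, where the background over all protein-coding genes was 23.4%. By class these were 9 of 18 tri-snRNP and Lsm genes, 7 of 14 SR-related genes and their kinases, 5 of 18 Prp19-associated and catalytic genes, 3 of 6 U2AF and branch point genes, 3 of 8 hnRNP-like genes, 3 of 5 minor spliceosome genes and 2 of 8 helicases. The shares of the helicases (25%) and of the Prp19-associated genes (27.8%) were near that background. The largest -log10 q was in Luc7l, a homologue of a yeast U1 protein (13.9, fold 4.08, pileup 58 against an input level of 13.4), followed by the Sm-like Lsm7 (12.3, fold 3.72), Luc7l2 (11.9, fold 4.95, 15 peaks), Lsm5 (10.1, fold 7.04) and Zmat5, a U11/U12 protein (9.63, fold 8.68 at a pileup of 13).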

How the data were processed

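RIP and input RNA of newborn mouse ovary were sequenced as single reads of 36 bases, 1 sample each. The submitters' processing notes name build mm10, the peak caller MACS2 (2.1.0.20140616), the aligner TopHat2 (2.0.8b), and also FastQC (0.11.2) and CASAVA (1.8.2). RNA was amplified as antisense RNA before library preparation, per the labels' protocols. Peaks were called on 3 pooled lanes per sample with a q cutoff of 0.05, tags extended to 50 bp and 1 tag kept per position, per the file headers. The caller takes no account of splicing or strand, and a pileup cannot exceed 100. The pileup signal, the fold enrichment (a ratio) and the -log10 p-value and q-value of each peak are the authors' deposited values. The sources used here do not give how genes were paired with peaks.

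Exact repeats (42176 of 85730 rows) were dropped. The input level was computed as (pileup + 1) / fold - 1. A Poisson -log10 p computed from this level was within 5.62e-05 of the authors' value at every peak. Symbols of 9628 of 11969 genes (80.4%) matched the RefSeq table (GRCm38.p6), whose genes gave the background shares. Any protein-coding gene left unmatched counts as not overlapped in those shares, while the symbols of all 37 members matched. The part of this in the background was not tested. RefSeq promoter windows were found for 31 of the 37 members. Positions follow the strand of the gene in the authors' table, and coordinates count from 1. The position and merging steps were tested on simulated data. No p-value was computed, since genes and peaks are not replicates.

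The members, role groups, other splicing genes and tests were chosen with earlier results of these data known. Peak values are given for the 12 members with the largest -log10 q, for up to 3 members of each role group and, of the other splicing genes, for the 5 with the largest -log10 q, except that the values of 1 overlapped member are not reported here, though it is included in all counts. Further members are given by count, range or single values and were singled out after their values were seen. Alternatives were stricter q, fold and pileup thresholds, merged peaks, all pairs, peaks paired with 1 gene, RefSeq gene bodies, other definitions of the gene end, a fold without pseudocount and the best peak by q. Tables were handled with pandas 2.3.3 and numpy 2.4.6 in Python 3.11.15, intervals came from scipy 1.17.1, and plots were drawn with matplotlib 3.10.9.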

Additional observations from a re-analysis of the deposited data

How the results depend on the processing

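Of 39 values recomputed under the alternatives, 29 stayed within 1.5 times of the reported count, or inside the interval of the reported median (2.26 to 4.03) or share, and 10 moved. Merging peaks within 100 bp cannot change the gene counts or the best fold, so those stayed by construction. The fall from 32 to 24 overlapped members at a -log10 q of at least 3 counts as stayed. The 32 overlapped members became 13 at a fold of at least 3 and 16 from peaks paired with exactly 1 gene. The 13 are 40.6% of the overlapped members, where 76.2% of all 6158 overlapped genes had a best fold of at least 3. The share over all protein-coding genes was not recomputed under these settings. The comparison of 45.1% with 23.4% thus holds only for all called peaks. The 104 peaks became 65 at a -log10 q of at least 3, 31 at a fold of at least 3 and 40 from peaks paired with exactly 1 gene. At a fold of at least 3 the median best fold was 4.13, by construction. The 32 other splicing genes became 20 at a fold of at least 3 and 19 from peaks paired with exactly 1 gene. The share of summits at the 3' end was 53.8% for the last 20% of the gene and 73.1% within 5 kb of its end, which are wider by construction. With RefSeq gene bodies 32 members and 105 peaks were counted. No paired analysis was possible because there is 1 RIP and 1 input sample. Depth, 1 tag per position and the lack of replicates limit these values: low-input folds such as those of Snrpn, Prpf39 and the upstream Hnrnpf peak rest on 7 to 13 tags.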
